A study of Mus musculus with 18 samples.

Results

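The genes examined were the chromosome 17 neighbours of Smchd1, the gene deleted in these mice. They were every row of the count tables on chromosome 17 with a start between 61000000 and 81000000 (mm10), about 10 Mb on either side, with Smchd1 itself left out. The rule used position alone and gave 108 of the 25965 genes counted. Of these, 44 lay on the centromere side of Smchd1 and 64 on the far side, and GENCODE M21 annotates 93 as protein coding. Counts came from 18 RNA sequencing libraries of bone marrow cells sorted as CD45.2+ B220+ Mac1-, a sort for B cells, each from a C57BL/6 mouse aged 12 to 16 months with its own animal number. There were 5 female Smchd1 del/del libraries and 5 female Smchd1 del/+ libraries, and 4 male Smchd1 del/del libraries and 4 male Smchd1 del/+ libraries. All 18 mice carried 1 copy of Vav.Cre (Vav.Cre[T/+]), a recombinase transgene driven by a promoter active in blood-forming cells. The del/+ mice thus carried the transgene too, with 1 allele labelled as deleted. In which cells of the mice Smchd1 was deleted is not stated in the labels. The labels do not say which stretch of Smchd1 was removed. Libraries held between 9788112 and 29405395 counts, and the 108 neighbours took between 0.444% and 0.507% of them.

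SMCHD1 is a chromatin protein related to the structural maintenance of chromosomes family, known for keeping the inactive X chromosome, imprinted genes and clustered protocadherin genes silent. Genes close to a targeted allele are inherited with it, because recombination seldom separates near neighbours. Their levels are therefore often inspected when a gene has been deleted, both for DNA carried along with the allele and for a direct effect of the altered locus on its surroundings. The comparison here asked whether these linked genes differed between libraries labelled del/del and libraries labelled del/+.

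The promoters of 3 genes are shown first. Emilin2 and Ndc80 are the nearest tested neighbours of Smchd1 on the centromere side and the far side. Mtcl1 had the largest difference between genotypes in females and with both sexes, but not in males. Each line gives the 250 bases before the gene's RefSeq start, from GRCm38.p6, 5′ to 3′ on the gene's own strand, which is minus in all of them. Capitals mark the GC box, GGGCGG read on either strand.
Emilin2, chr17:71311012-71311261, minus strand: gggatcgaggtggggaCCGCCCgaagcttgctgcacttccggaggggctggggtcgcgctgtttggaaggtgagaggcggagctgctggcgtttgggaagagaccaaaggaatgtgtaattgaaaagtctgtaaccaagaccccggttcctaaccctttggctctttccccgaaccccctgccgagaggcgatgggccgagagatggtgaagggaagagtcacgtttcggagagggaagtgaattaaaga
Ndc80, chr17:71526858-71527107, minus strand: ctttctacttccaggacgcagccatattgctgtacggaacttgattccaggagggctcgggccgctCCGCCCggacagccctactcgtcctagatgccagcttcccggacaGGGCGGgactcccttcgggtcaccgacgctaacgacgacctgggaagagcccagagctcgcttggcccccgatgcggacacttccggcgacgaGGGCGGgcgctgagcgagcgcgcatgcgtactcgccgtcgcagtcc
Mtcl1, chr17:66449751-66450000, minus strand: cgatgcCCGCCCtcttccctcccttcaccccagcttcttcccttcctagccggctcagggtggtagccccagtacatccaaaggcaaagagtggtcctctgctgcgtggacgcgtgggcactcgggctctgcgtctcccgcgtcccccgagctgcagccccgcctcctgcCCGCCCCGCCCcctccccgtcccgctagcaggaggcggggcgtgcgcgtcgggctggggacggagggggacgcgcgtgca
The Emilin2 window held 15 CG dinucleotides, the Ndc80 window 29 and the Mtcl1 window 25. The GC box was found 1 time in Emilin2, 3 times in Ndc80 and 3 times in Mtcl1, where the last 2 matches overlap. The CCAAT box (letters CCAAT), the TATA box (letters TATAAA) and the cell cycle homology region (letters TTTGAA), searched on both strands, were not found in these windows. RefSeq gave promoters for 83 of the 108 neighbours. Some genes have more than 1 promoter entry, and the 60 tested neighbours with an entry had 83 promoters, of which 59% held a GC box, 22.9% a CCAAT box, 4.82% a TATA box and 13.3% the homology region. Over the 13324 promoters of all tested genes, 55.2% held a GC box, 35.3% a CCAAT box, 6.6% a TATA box and 11% the homology region. Over the whole table of 32851 promoters the GC box was in 32.7%, the CCAAT box in 33.8%, the TATA box in 12.4% and the homology region in 16%. The median number of CG dinucleotides was 18 in promoters of tested neighbours, 15 in those of all tested genes and 6 over the whole table.

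The sort was checked against marker lists. Levels throughout are in CPM, counts scaled to each library's total with TMM factors of each sex. All 9 B cell identity markers summed here were detected in the libraries (Cd79a, Cd79b, Pax5 and others), with summed levels of 6802 to 7696 CPM in female del/del, 6719 to 7397 in female del/+, 8141 to 8996 in male del/del and 8077 to 9318 CPM in male del/+ libraries. Transcripts of other marrow cells were also present. Erythroid markers (13 of the 14 listed were analysed, all detected) summed to 163 to 271 CPM in female del/del, 154 to 661 in female del/+, 248 to 385 in male del/del and 203.3 to 1150 CPM in male del/+ libraries. Plasmacytoid dendritic cell markers, all 13 detected, summed to 3614 to 4970 CPM in female del/del, 3449 to 4702 in female del/+, 2877 to 3312 in male del/del and 2916 to 3458 CPM in male del/+ libraries. The sums overlapped between genotypes, but single markers leaned one way. Among the 13 erythroid markers 0 had a log2 fold change (del/del over del/+) above 0 in either sex, with medians of -0.81 in females and -0.66 in males. Among the 13 plasmacytoid dendritic cell markers 13 lay above 0 in females and 11 in males, with medians of 0.40 in females and 0.35 in males. Over all tested genes 48.8% lay above 0 in females and 50.6% in males. Neither list held a gene called by edgeR at an adjusted p under 0.05, where 0.252% of all tested genes were called in females and 0.119% in males. At an unadjusted p under 0.05 were 9 erythroid markers in females and 1 in males, and 2 plasmacytoid dendritic cell markers in females and 5 in males. Over all tested genes 4.3% were at that level in females and 3.34% in males. The part of these cells in the results was not tested, except where a marker score was used as a covariate.

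Smchd1 was measured first as a check of the labels (ENSMUSG00000024054, chromosome 17, 71344489 to 71475343, minus strand). In female del/del libraries Smchd1 was at 140, 138, 130, 174 and 128 CPM, against 271, 235, 265, 240 and 240 CPM in female del/+ libraries. Males showed 162, 176, 168 and 197 CPM in del/del libraries, against 292, 274, 286 and 324 CPM in del/+ libraries. Every del/del library lay below every del/+ library of its sex. Smchd1 fell on the log2 scale by 0.82 in females (SE 0.09, adjusted p = 0.00119) and by 0.74 in males (SE 0.08, adjusted p = 0.00888; edgeR quasi-likelihood test with Benjamini-Hochberg adjustment over all genes). Leaving out 1 male library ended the male call in 3 cases, with adjusted p = 0.0525 for del/+ number 1, 0.0540 for del/del number 1 and 0.0538 for del/del number 3. The male call was also lost with a plasmacytoid dendritic cell score, each library's mean log2 level of those markers, as a covariate (-0.66, adjusted p = 0.127 by edgeR). In bulk RNA, fewer cells of a type and less RNA per cell cannot be told apart.

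No neighbour of Smchd1 passed the same test, in either sex or with the sexes together. In females 71 neighbours passed the filter on low counts and 0 were called (adjusted p under 0.05), where 0.252% of all 13501 tested genes were called. In males 71 were tested and 0 called, where 0.119% of all 13413 tested genes were called. With all 18 libraries in 1 fit and sex as a covariate, 73 were tested and 0 called, where 0.556% of all 14017 tested genes were called. That fit shares its libraries with the fits of each sex. The smallest adjusted p of any neighbour by edgeR's quasi-likelihood test was 0.975 in females, 0.9998 in males and 0.317 with both sexes. Voom and DESeq2 likewise called 0 neighbours in females, in males and with both sexes. In the authors' deposited table for females 70 neighbours were listed, 0 of them at an FDR under 0.05, where 35 of all 13498 rows were. In the authors' deposited table for males 70 were listed, also with 0, where 16 of all 13409 rows were. Shares this low would leave few or 0 calls among any 70 genes.

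At an unadjusted p under 0.05 there were 3 neighbours in females, where 4.3% of all tested genes were at that level, and 2 in males, where the share was 3.34%. With both sexes there were 8, where 6.76% of all tested genes were at that level. The female genes were Mtcl1, Ppp4r1 and Gm17538, a processed pseudogene that may share reads with its parent gene and that is named here after its value was seen. The male genes were Fer and Galnt14. Those with both sexes included Ppp4r1, Fer, Gemin6, Gm17538, Crim1, Ndc80 and Mtcl1. No neighbour had an unadjusted p under 0.05 in both the female and the male fit.

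The libraries of each genotype overlapped for nearly every tested neighbour. In females all 5 del/del libraries lay below all 5 del/+ libraries for 1 neighbour, Ppp4r1, where 0.222% of all tested genes did so. They lay above all del/+ libraries for 0 neighbours, where 0.83% of all tested genes did. In males 0 neighbours had del/del libraries all above (1.44% of all tested genes) and 0 had them all below (0.529%). For 0 neighbours were the groups apart in the same direction in both sexes, which held for 34 of the 13175 genes tested in both sexes (0.258%).

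The size of difference that these data leave possible was small for most of the tested neighbours. In females the 95% interval of the fold change lay within 2-fold for 61 of 71, where 85.1% of all tested genes did so. In males it lay within 2-fold for 61 of 71 (88.9% of all tested genes) and with both sexes for 67 of 73 (90.4%). The shares were close to those of all genes, and so they were at a narrower bound. Within 1.5-fold lay 50 neighbours in females (68% of all tested genes), 55 in males (73.3%) and 61 with both sexes (76.9%). An interval that left out a fall as large as that of Smchd1 was found for 64 neighbours in females (91.2%), 65 in males (90.9%) and 69 with both sexes (94.1%). The 6 whose interval reached past 2-fold with both sexes were Mtcl1, Epb41l3, Myom1, Galnt14, Qpct and Arhgef33, a set named after its values were seen, and all lay under 1 CPM per kb of exon.

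**Figure D1:**
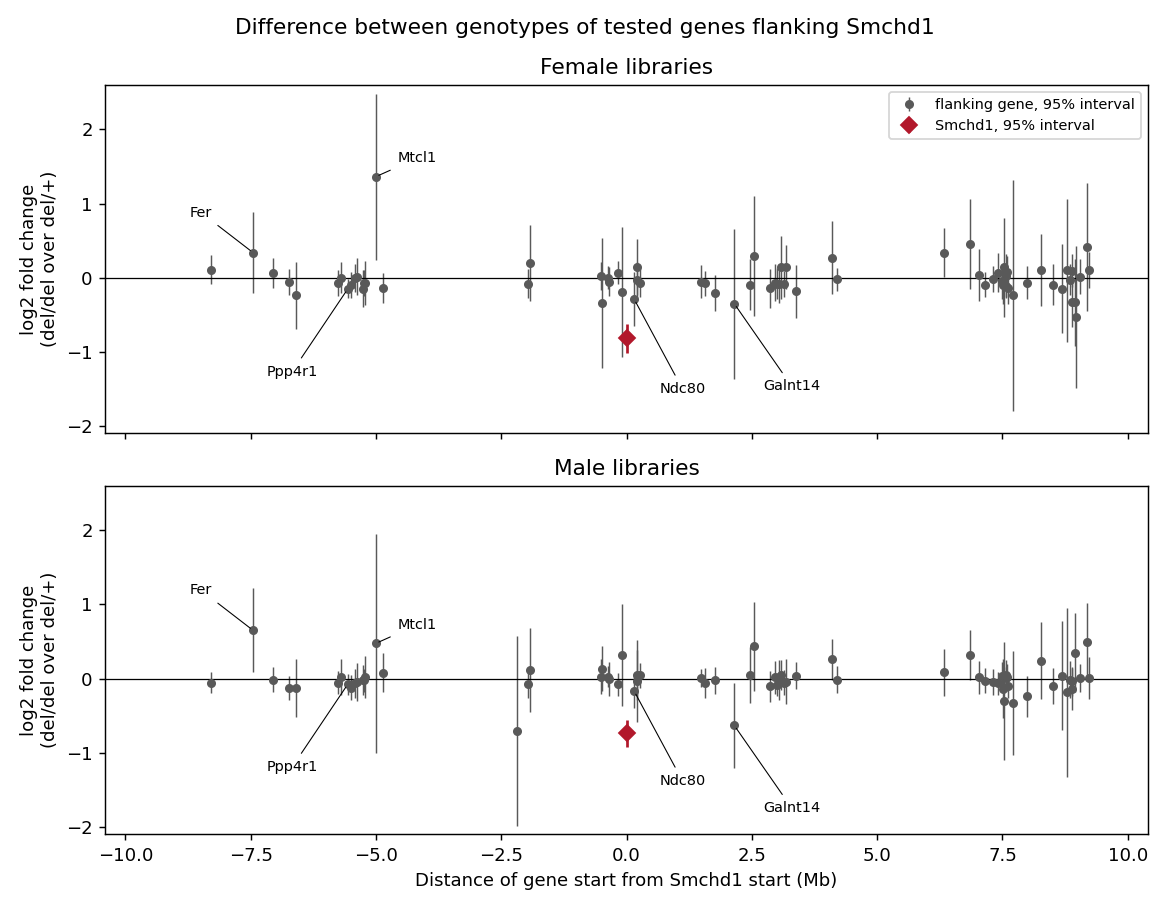
Log2 fold change (del/del over del/+) of each tested neighbour against the distance of its start from that of Smchd1 in Mb, for female libraries above and male libraries below; bars are 95% intervals. The tested neighbours gather around 0 on both sides, while Smchd1 lies at -0.82 in females and -0.74 in males. The widest female difference is that of Mtcl1 at 1.36.

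The middle of the distribution lay close to 0. In females the median log2 fold change of the tested neighbours was -0.056, with 27 above 0 and 44 below, beside -0.0044 and 48.8% above 0 over all tested genes. In males the median was -0.015, with 32 above and 39 below, beside 0.0013 and 50.6% above 0. With both sexes it was -0.030, with 28 above and 45 below, beside -0.0005 and 49.9% above 0. The female value leaned on 1 library, since without del/del library 2 it was -0.0082. Each library's own median deviation, neighbours minus all genes, was 0.0132, -0.0669, 0.0164, -0.0058 and -0.1087 in female del/del libraries and 0.0079, -0.0044, 0.0147, 0.0305 and -0.0348 in female del/+ libraries. It was 0.0065, -0.0170, -0.0919 and 0.0212 in male del/del libraries and -0.0060, 0.0086, -0.0594 and 0.0181 in male del/+ libraries. The lowest libraries were of the del/del genotype in both sexes, and the other del/del libraries lay within or close to the span of the del/+ libraries. The neighbours' share of all counts was 0.471% ± 0.0188 in female del/del and 0.480% ± 0.00618 in female del/+ libraries (SD, n = 5 each), and 0.487% ± 0.0151 in male del/del and 0.495% ± 0.0127 in male del/+ libraries (SD, n = 4 each).

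Distance from Smchd1 did not order the differences. With both sexes, the median log2 fold change was 0.0036 for the 11 tested neighbours within 1 Mb, -0.069 for the 5 from 1 to 2 Mb, -0.038 for the 16 from 2 to 5 Mb and -0.033 for the 41 from 5 to 10 Mb. In females the medians of the same classes were -0.042, -0.073, -0.081 and -0.024, over 10, 5, 15 and 41 genes. In males they were 0.024, -0.024, 0.0003 and -0.027, over 10, 5, 16 and 40 genes. No class stood out from the others in all of these fits, and no trend was tested. The centromere side (26 genes) and the far side (47 genes) had medians of -0.031 and -0.029 with both sexes. On the rest of chromosome 17, 1 of 648 tested genes was called in females, 2 of 655 in males and 3 of 670 with both sexes, Smchd1 not counted.

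The nearest tested gene was Ndc80, which encodes a subunit of the outer kinetochore, the structure that ties chromosomes to the mitotic spindle (71496100 to 71526857, minus strand, 20.8 kb from Smchd1). In female del/del libraries Ndc80 was at 54.0, 76.4, 54.2, 84.8 and 38.8 CPM, against 66.5, 77.5, 76.3, 78.8 and 77.3 CPM in female del/+ libraries. Among males it was at 47.5, 47.0, 37.3 and 37.5 CPM in del/del libraries, against 47.0, 52.5, 42.9 and 48.0 CPM in del/+ libraries. In females 3 del/del libraries lay below every del/+ library and in males 2 did, while the rest overlapped. The log2 fold change of Ndc80 with both sexes was -0.24 (SE 0.11), with an unadjusted p of 0.0435 and an adjusted p of 0.719 by edgeR's quasi-likelihood test. The same libraries were low in a list of 12 other mitotic genes (Nuf2, Spc24, Spc25, Aurkb, Ccnb1, Bub1, Plk1, Cdk1, Mki67, Top2a, Ccna2 and Kif11), a list chosen after the values of Ndc80 were seen. Their summed level was 2698, 4039, 3024, 4269 and 2100 CPM in female del/del libraries, lowest where Ndc80 was lowest, and 3369 to 4095 CPM in female del/+ libraries. It was 2320, 2137, 1546 and 1689 CPM in male del/del and 1835 to 2345 CPM in male del/+ libraries. None of the 12 lay above 0 in either sex, with medians of -0.22 in females and -0.13 in males, where 48.8% of all tested genes lay above 0 in females and 50.6% in males. By edgeR 0 of the 12 were called, where 0.252% of all tested genes were called in females and 0.119% in males. Of the 12, 0 had an unadjusted p under 0.05, where 4.3% of all tested genes did in females and 3.34% in males. As the list was chosen with Ndc80 in view, nothing is read from these sums and counts. Whether the level of mitotic genes had a part in the values of Ndc80 was not tested.

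On the other side the nearest gene was Emilin2, which encodes an elastin microfibril interface protein of the extracellular matrix (71252176 to 71310965, minus strand, 33.5 kb away). In female del/del libraries Emilin2 was at 5.68, 3.88, 9.31, 6.80 and 18.1 CPM, against 5.06, 17.7, 6.33, 11.2 and 10.3 CPM in female del/+ libraries. Male del/del libraries held it at 10.8, 8.44, 26.0 and 13.3 CPM, against 11.7, 14.1, 9.80 and 11.4 CPM in male del/+ libraries. Single libraries of either genotype stood highest, and the groups overlapped widely. The log2 fold change with both sexes was 0.04 (SE 0.29), and its 95% interval ran from -0.56 to 0.64. The sign was not stable, since it was -0.32 once the plasmacytoid dendritic cell score was a covariate. A list of 14 neutrophil and monocyte markers, all detected, summed to 1028 to 5054 CPM in female del/del, 1528 to 3611 CPM in female del/+, 1886 to 5876 CPM in male del/del and 1781 to 3437 CPM in male del/+ libraries. Its highest sums were in female del/del library 3, female del/del library 5 and male del/del library 3, where Emilin2 was also the highest or next to highest of its group. Of the 13 of these markers tested, 10 lay above 0 in females and 13 in males, with medians of 0.17 in females and 0.23 in males. Over all tested genes 48.8% lay above 0 in females and 50.6% in males. By edgeR 0 of the 13 had an unadjusted p under 0.05 in either sex, where 4.3% of all tested genes did in females and 3.34% in males. The part of these cells in the level of Emilin2 was not tested.

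Lpin2, a phosphatidate phosphatase of lipid synthesis, lay 94.7 kb away and was evenly measured. Its level was 95.4, 103, 100, 110 and 89.6 CPM in female del/del libraries, against 100, 91.0, 98.5, 92.5 and 92.2 CPM in female del/+ libraries. In male del/del libraries it was 77.0, 68.6, 66.9 and 75.5 CPM, against 79.0, 70.5, 77.7 and 76.3 CPM in male del/+ libraries. The genotypes overlapped, and the 95% interval of the log2 fold change with both sexes ran only from -0.10 to 0.11. Myl12a and Myl12b, regulatory light chains of nonmuscle myosin, lay 342 and 354 kb away. Myl12b averaged 216.7 ± 11.7 CPM in female del/del and 216.6 ± 14.7 CPM in female del/+ libraries (SD, n = 5 each), while Myl12a averaged 143 ± 6.76 CPM in female del/del and 148 ± 19.1 CPM in female del/+ libraries. With both sexes their log2 fold changes were 0.01 (SE 0.04) for Myl12b and -0.03 (SE 0.07) for Myl12a. Myom1, which encodes a protein of the muscle sarcomere (218 kb away), was under 1 CPM in every library and passed the filter only with both sexes (log2 0.40, SE 0.32, interval -0.28 to 1.07).

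On the far side beyond Ndc80 came Spdya, an activator of cyclin-dependent kinases (76.7 kb), and Trmt61b (81.7 kb), which overlap on opposite strands. No source used here states whether counting used strand. Reads from the stretch that this pair shares therefore cannot be told apart, and GENCODE M21 types the Trmt61b entry as antisense. Trmt61b was at 9.70, 9.07, 10.1, 10.3 and 8.56 CPM in female del/del libraries, against 9.66, 9.94, 9.82, 9.83 and 9.54 CPM in female del/+ libraries, with the groups overlapping. With both sexes the log2 fold changes were 0.07 (SE 0.14) for Spdya and 0.00 (SE 0.08) for Trmt61b. Wdr43, a factor of ribosomal RNA processing (141 kb), differed by -0.02 (SE 0.06) on the same scale. Past it no tested gene lay for over 1 Mb, up to Ypel5, linked to a ubiquitin ligase complex (1361 kb), which differed by -0.03 (SE 0.06).

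**Figure D2:**
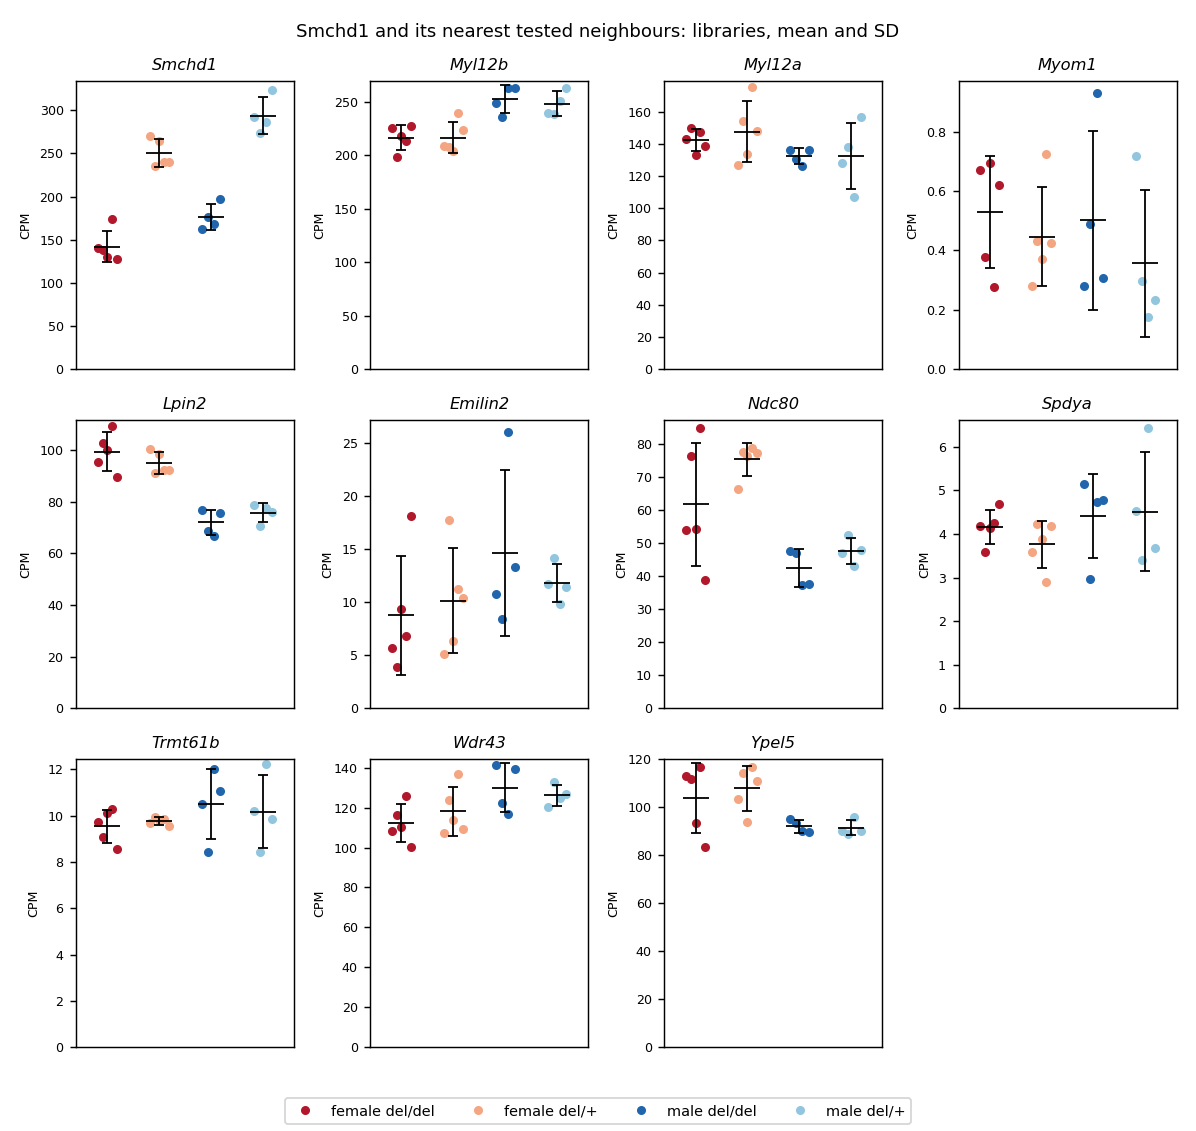
CPM of Smchd1 and of its 5 nearest tested neighbours on each side in every library (points), with the mean and SD of each group (bars), in the order female del/del, female del/+, male del/del and male del/+. The genotypes separate for Smchd1 in both sexes and overlap for all 10 neighbours, Ndc80 among them.

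Ppp4r1, a regulatory subunit of protein phosphatase 4 (ENSMUSG00000061950, 65782573 to 65841926, plus strand, 5503 kb away), had the smallest p of the neighbours with both sexes. Its level was 102, 106, 102, 104 and 100 CPM in female del/del libraries, against 116, 114, 116, 116 and 108 CPM in female del/+ libraries. Male del/del libraries held Ppp4r1 at 112, 123, 113 and 110 CPM, against 117, 127, 116 and 125 CPM in male del/+ libraries. The female genotypes were apart by a narrow margin, and the male genotypes overlapped. Log2 fold changes were -0.15 in females (SE 0.06, unadjusted p = 0.0250, edgeR adjusted p = 0.975), -0.08 in males (SE 0.06) and -0.12 with both sexes (SE 0.04, unadjusted p = 0.00467, edgeR adjusted p = 0.317). The interval with both sexes was 0.873 to 0.972 as a fold, so the difference, though evenly measured, was under 1.5-fold.

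Mtcl1, whose protein crosslinks microtubules (ENSMUSG00000052105, 66336982 to 66449750, minus strand, 4895 kb away), had the largest difference of the tested neighbours with both sexes. It was scarcely expressed. Counts were 8, 27, 12, 20 and 19 in female del/del libraries, against 11, 6, 12, 3 and 1 in female del/+ libraries. In male del/del libraries they were 11, 26, 21 and 18, against 1, 34, 3 and 4 in male del/+ libraries. As levels these were 0.413, 1.14, 0.464, 0.925 and 0.909 CPM in female del/del libraries, against 0.384, 0.519, 0.406, 0.168 and 0.0426 CPM in female del/+ libraries. The female groups overlapped at their edges, and in males 1 del/+ library, number 2, exceeded every del/del library. The log2 fold change was 1.36 in females (SE 0.52, unadjusted p = 0.0207, edgeR adjusted p = 0.975), 0.47 in males (SE 0.66) and 0.96 with both sexes (SE 0.44, edgeR adjusted p = 0.719). Without male del/+ library 2 the value with both sexes was 1.60 and the adjusted p was 0.0542, the smallest of any neighbour in any alternative run. Over the other libraries left out in turn, the adjusted p of Mtcl1 lay between 0.4955 and 0.9999. Male del/+ library 2 also had the highest erythroid sum of the 18 libraries, 1150 CPM. Some other scarce neighbours, named after their values were seen, had their highest count in that library too. There Lama1 had 10 counts, Vit 9, Cyp1b1 9, Ltbp1 14 and Epb41l3 34. Other scarce neighbours did not, Ptprm and Clip4 among them. Efna5 had 16 counts there but 19 in female del/del library 2, and Myom1 had 6 there but 21 in male del/del library 3. What lay behind the high counts in male del/+ library 2 was not tested. With the erythroid score as a covariate, Mtcl1 differed by 1.65 with both sexes (edgeR adjusted p = 0.2805) and by 1.20 in females (edgeR adjusted p = 0.9996). In the authors' deposited table for females Mtcl1 had the smallest FDR of the neighbours, 0.937.

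Fer, a non-receptor tyrosine kinase (63896018 to 64139494, plus strand, 7205 kb away), was at 4.03, 4.05, 2.98, 3.75 and 2.96 CPM in female del/del libraries, against 1.71, 2.16, 3.01, 4.36 and 2.81 CPM in female del/+ libraries. In male del/del libraries Fer was at 2.32, 3.02, 3.19 and 3.23 CPM, against 1.65, 2.77, 1.57 and 1.41 CPM in male del/+ libraries. In females 2 del/+ libraries reached into the del/del values and in males 1 did, so the groups overlapped. Its log2 fold change was 0.65 in males (SE 0.25, unadjusted p = 0.0289, edgeR adjusted p = 0.9998) and 0.47 with both sexes (SE 0.18, unadjusted p = 0.0164, edgeR adjusted p = 0.553). Crim1, a membrane protein that binds bone morphogenetic proteins, was at 13.8, 12.7, 16.4 and 17.1 CPM in male del/del libraries, against 10.7, 11.2, 10.9 and 15.6 CPM in male del/+ libraries. Here too 1 del/+ library, number 4, kept the groups from separating. Its log2 fold change with both sexes was 0.39 (SE 0.18, unadjusted p = 0.0366, edgeR adjusted p = 0.694).

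Gemin6, a member of the complex that assembles spliceosomal ribonucleoproteins, was at 10.9, 12.4, 11.8, 12.3 and 6.98 CPM in female del/del libraries, against 13.3, 14.1, 13.2, 15.5 and 12.3 CPM in female del/+ libraries. The groups met near 12.3 CPM, and 1 del/del library lay far below the rest. Its log2 fold change with both sexes was -0.25 (SE 0.10, unadjusted p = 0.0247, edgeR adjusted p = 0.615). Galnt14, a transferase that starts O-linked glycan chains, was at 1.25, 1.29, 1.86 and 1.23 CPM in male del/del libraries, against 2.37, 2.57, 2.38 and 1.41 CPM in male del/+ libraries. The male groups overlapped through del/del library 3 and 1 low del/+ library, with a log2 fold change of -0.63 (SE 0.26, unadjusted p = 0.0345, edgeR adjusted p = 0.9998). In females Galnt14 spread from 0.31 to 2.77 CPM in del/del libraries and from 0.95 to 3.14 CPM in del/+ libraries.

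**Figure D3:**
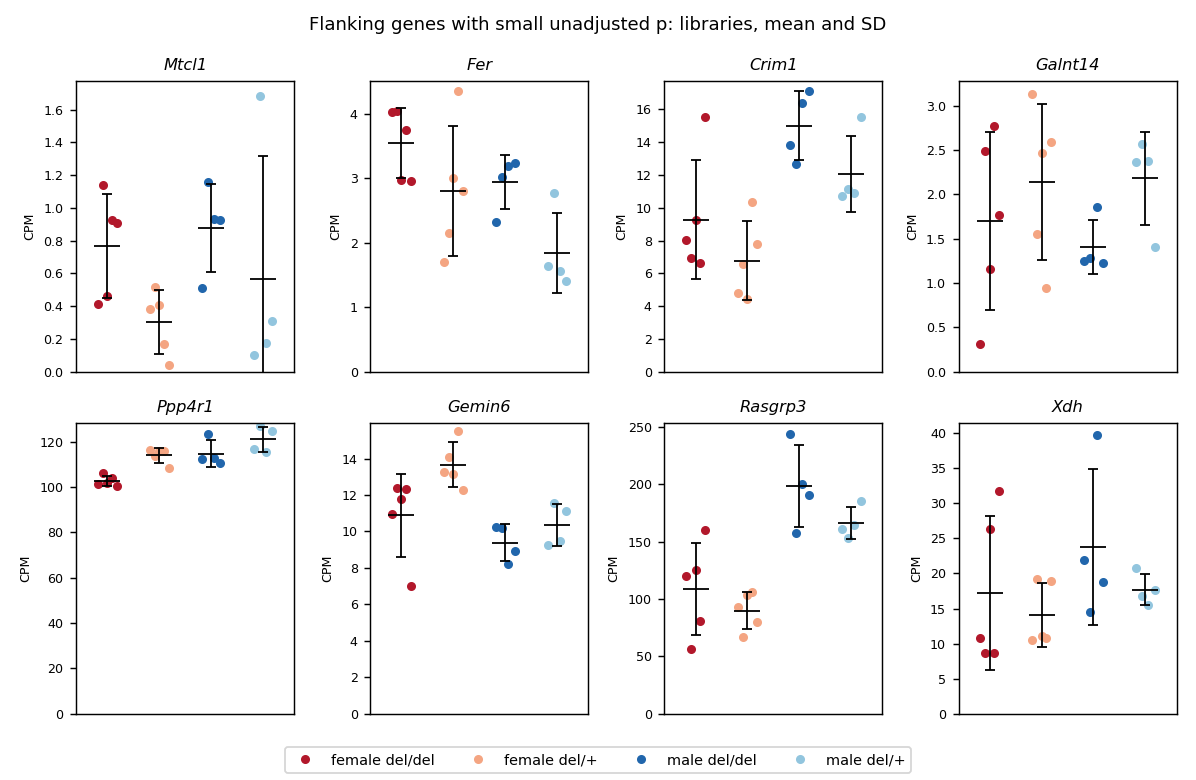
CPM of 8 neighbours with small unadjusted p in 1 or more comparisons, by library (points), with the mean and SD of each group (bars; a bar reaching below 0 is cut at the axis), in the order female del/del, female del/+, male del/del and male del/+. The groups overlap in all panels but that of Ppp4r1 in females, and 1 male del/+ library of Mtcl1 at 1.68 CPM stands far above the other 3.

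Grouped loosely by role, 8 lists of neighbours were described. Of their members 0 were called in any fit, where 0.252% of all tested genes were called in females, 0.119% in males and 0.556% with both sexes. With so few tested genes in each list, these counts say nothing of a role. The list of cell division and DNA genes had 4 tested members with both sexes and a median log2 fold change of 0.01, with 2 above 0 and 2 below. Beside Ndc80 and Spdya it held Birc6, a giant inhibitor of apoptosis, at 0.06 (SE 0.11), and the DNA helicase Ddx11. Chromatin and transcription genes had 6 tested of 7, a median of -0.04, 1 above and 5 below. Among them Lbh, a transcription regulator, differed by -0.07 (SE 0.06), Zbtb14, a zinc finger factor, by -0.08 (SE 0.06) and Cebpz by -0.06 (SE 0.05). Cebpz overlaps Cebpzos on the other strand from 78919006 to 78921037, and only reads from that stretch cannot be told apart.

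RNA processing and translation genes had 9 tested of 9, a median of -0.02, 2 above and 7 below. Eif2ak2, which encodes the double-stranded RNA kinase PKR, differed by -0.11 (SE 0.11) and Ttc27 by -0.09 (SE 0.10), while Srsf7, a splicing factor, differed by -0.02 (SE 0.07). Membrane traffic and lipid genes had 12 tested of 12, a median of -0.07, 2 above and 10 below. Lclat1, an acyltransferase of phospholipids, differed by -0.13 (SE 0.07), and Man2a1, a Golgi mannosidase, by -0.09 (SE 0.05). The median over all tested genes was -0.0005, and no set test was made of any list.

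Mitochondrial and metabolic genes had 8 tested of 9, a median of -0.03, 3 above and 5 below. Xdh, the xanthine dehydrogenase of purine breakdown, was at 10.8, 8.69, 26.3, 8.65 and 31.7 CPM in female del/del libraries, against 10.46, 19.3, 11.1, 10.8 and 18.9 CPM in female del/+ libraries. In male del/del libraries it was at 21.9, 14.6, 39.8 and 18.8 CPM, against 20.8, 16.9, 15.6 and 17.7 CPM in male del/+ libraries. The del/del libraries where Xdh was high were again female 3, female 5 and male 3, those with the highest neutrophil and monocyte sums, and the part of these cells was not tested. With both sexes Xdh differed by 0.36 on the log2 scale (SE 0.25), but by -0.17 with the plasmacytoid dendritic cell score as a covariate. No fit used a neutrophil and monocyte score. Ndufv2, a subunit of respiratory complex I, differed by -0.09 (SE 0.08) and Rmdn2 by 0.16 (SE 0.15).

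Signalling genes had 12 tested of 16, a median of -0.03, 5 above and 7 below. Besides Fer and Ppp4r1 they held Rasgrp3, an exchange factor that activates Ras downstream of the B cell receptor. Rasgrp3 was at 120, 56.8, 125, 81.2 and 160 CPM in female del/del libraries, against 93.2, 67.0, 103, 106 and 80.2 CPM in female del/+ libraries. In male del/del libraries it was at 244, 158, 201 and 191 CPM, against 161, 153, 164 and 186 CPM in male del/+ libraries. The female del/del libraries spread wider than the female del/+ libraries, and the genotypes overlapped in both sexes (log2 0.26 with both sexes, SE 0.15, unadjusted p = 0.0901). Prkd3, a protein kinase D, differed by -0.12 (SE 0.06), Cdkl4, a cyclin-dependent kinase-like gene near 1 CPM, by 0.45 (SE 0.24) and Sos1, another Ras exchange factor, by 0.01 (SE 0.07). Adhesion, matrix and cytoskeleton genes had 7 tested of 13, a median of 0.04, 5 above and 2 below, with Mtcl1, Crim1 and Memo1 (-0.13, SE 0.08) among them. The list of ubiquitin and turnover genes also held genes of other roles, such as Nlrc4, an inflammasome sensor, so its median is not that of a single role. It had 6 tested of 7, a median of 0.02, 4 above and 2 below. In it Nlrc4 differed by 0.10 (SE 0.12) and Fbxl17, an F-box protein, by 0.04 (SE 0.06). A further 31 neighbours were in no list, 9 of them tested.

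The sexes were compared over the 70 neighbours tested in both. Of these, 45 differed in the same direction in the female and the male libraries (64.3%, 17 above 0 and 28 below), where 63.2% of the 13175 genes tested in both sexes did so. Across these 70 genes, which are not independent replicates, the female and male log2 fold changes had a Pearson r of 0.554 and a Spearman rho of 0.363, beside 0.414 and 0.355 over all genes. No neighbour's genotype difference was called as different between the sexes (0 of 73, where 0% of all tested genes were called), and 0 had an unadjusted p under 0.05, where 1.45% of all tested genes did. Voom also called 0. The smallest p was that of Morn2, which differed by -0.33 in females (SE 0.27) and by 0.35 in males (SE 0.24), with an unadjusted p of 0.0955 for the difference between sexes (edgeR adjusted p = 0.9999). Morn2 overlaps Dhx57 on the other strand from 80290212 to 80290476, and only reads from that stretch cannot be told apart. The next 2 were Fbxl17 (unadjusted p = 0.117) and Lpin2 (0.119).

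**Figure D4:**
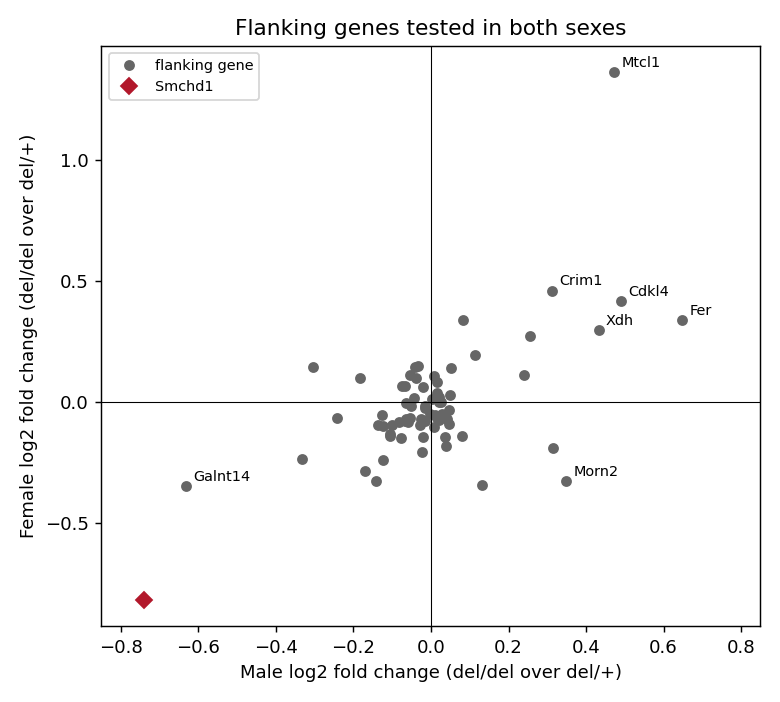
Female against male log2 fold change (del/del over del/+) of the 70 neighbours tested in both sexes (circles) and of Smchd1 (diamond). Most circles lie near the origin, Smchd1 lies low in both sexes, and the points farthest out are thinly expressed genes such as Mtcl1, Fer, Galnt14 and Cdkl4.

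Expression of the neighbours themselves covered a wide span. Per kb of exon, the 72 tested neighbours with an exon length had a median of 7.92 CPM per kb, against 10.7 CPM per kb for Smchd1, with 30 above 10 and 12 under 1. Highest was Lbh, at 115 to 141 CPM per kb in female del/del, 133 to 147 in female del/+, 157 to 193.8 in male del/del and 168 to 206 CPM per kb in male del/+ libraries. Its genotypes overlapped within each sex. Next came the processed pseudogene Gm10093 at 86.6 CPM per kb, which may share reads with its parent gene, then Myl12b at 83.7, Srsf7 at 68.5, Myl12a at 41.5 and Ndufv2 at 40.5 CPM per kb. At the low end were Mtcl1 at 0.0672, Myom1 at 0.0442 and Epb41l3, a cytoskeletal linker, at 0.0438 CPM per kb.

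**Figure D5:**
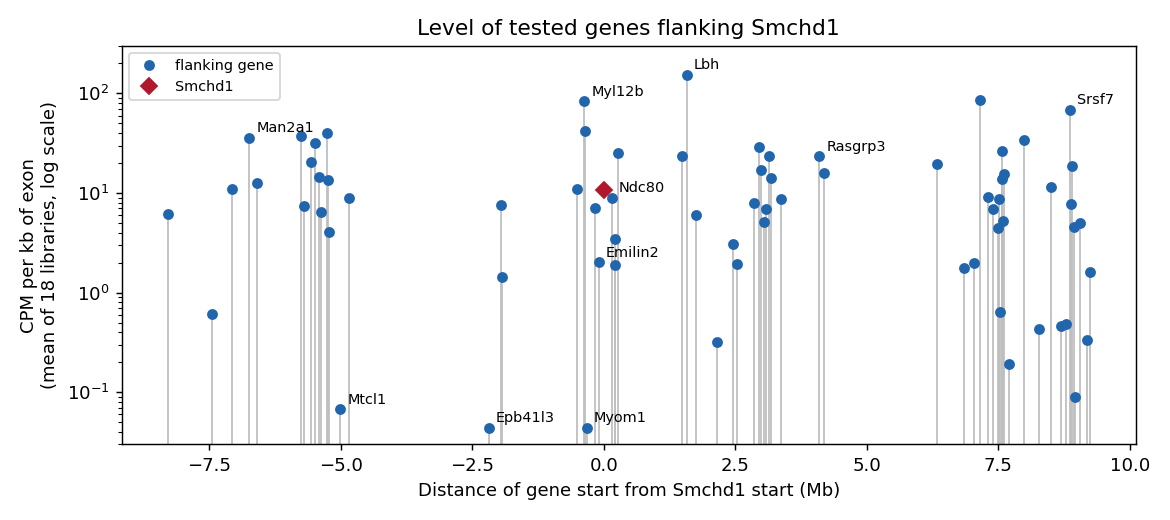
Mean level over 18 libraries of each tested neighbour in CPM per kb of exon (log scale) against the distance of its start from that of Smchd1 in Mb; the diamond is Smchd1 at 10.7 CPM per kb. High and low genes lie side by side along the whole region, from Lbh at 154 to Epb41l3 at 0.0438 CPM per kb.

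In all, 35 of the 108 neighbours entered no fit. Of these, 16 had 0 counts in all 18 libraries, and 19 had some counts but stayed under the filter. The highest of the 19 was the receptor phosphatase Ptprm, with 103 counts over 18 libraries and a mean of 0.286 CPM. Among the others were the receptor kinase Alk, the laminin chain gene Lama1, the matrix gene Ltbp1 and the cytochrome Cyp1b1. The 16 without counts could not separate by genotype. Of the 19, 0 had all del/del libraries above all del/+ libraries in either sex. Among tested genes 0.83% did so in females and 1.44% in males. Counts this low can hardly separate, so nothing is read from this. With no filter on low counts 91 neighbours were tested in females, 89 in males and 92 with both sexes, and edgeR's quasi-likelihood test called 0 in each.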

How the data were processed

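Female and male libraries came in separate tables of raw gene counts, which the authors deposited without normalization and which were used unchanged (25965 genes, 56 of them without an identifier). Sex and table therefore cannot be told apart. The neighbour C230073G13Rik, named after its values were seen, was at 0.191 to 1.03 CPM in female del/del and 0.432 to 0.894 in female del/+ libraries. In males it was at 23.4 to 32.7 CPM in del/del and 20.3 to 28.6 CPM in del/+ libraries. The cause was not tested. The 4 columns of group means were not used. The tools named are TopHat, Trim Galore, FastQC, bcl2fastq and edgeR 3.32.1, and the builds mm10 and GRCm38, per the submitters' processing notes. Not given in the sources used here are the counting program, its annotation and its use of strand. A further table for each sex, per the file headers, holds the authors' deposited log2 fold changes, F statistics (a score, not used here), p-values and FDR values, and these are quoted only as the authors' deposited table.

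Genes were filtered with filterByExpr (minimum count 10, minimum total count 15), which keeps a gene that is high in 1 genotype alone. TMM scaling and the quasi-likelihood test of edgeR 4.0.16 in R 4.3.3 were applied to all genes, for the 10 female libraries, the 8 male libraries, all 18 with sex as a covariate, and the interaction of sex and genotype. Log2 fold changes are del/del over del/+. The SE is the log2 fold change divided by the square root of F, and 95% intervals use the t distribution of that fit. The threshold was an adjusted p of 0.05, by the Benjamini-Hochberg method over all genes tested. Gene types and exon lengths came from GENCODE M21 (106 of 108 neighbours found), and promoters from RefSeq on GRCm38.p6. Strands came with the counts, and names were looked up by Ensembl identifier. The script was tested on simulated data.

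The members and lists were chosen with earlier results of these data known. Genes were named by rule: the 5 tested neighbours nearest to Smchd1 on each side, up to 6 higher and 6 lower of the smallest p in each fit, 3 of the interaction and 3 of each role list. A gene that this rule named and a B cell marker are not reported here. The genes of levels and intervals, and Ddx11, Srsf7 and Sos1, were named after their values were seen. Alternatives were RLE scaling, no filter, a minimum count of 50, voom (limma 3.58.1), DESeq2 1.42.0, pairs of animal numbers as a block, erythroid or plasmacytoid dendritic cell scores (mean log2 of CPM + 0.5 of the markers) as covariates, all 18 libraries in 1 fit, narrower windows and leaving out each library. Sums of 11 T and NK cell markers, of 12 listed, were 126 to 255 CPM in female del/del, 151 to 248 in female del/+, 144 to 172 in male del/del and 148 to 243 CPM in male del/+ libraries, with 5 of the 11 above 0 in females and 3 in males.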

Additional observations from a re-analysis of the deposited data

Results flagged for a closer look

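Of 156 groups of libraries checked, over Smchd1, the named neighbours and the neighbours' joint measures, 6 held 1 library far from the others of its group. Chance gives about 1 in 20. Mtcl1 was at 1.68 CPM in male del/+ library 2, against 0.103 to 0.312 CPM in the other 3. Smchd1 was at 173.5 CPM in female del/del library 4, against 128 to 140 CPM in the other 4, and remained below every female del/+ library. Gemin6 was at 6.98 CPM in female del/del library 5, against 10.9 to 12.4 CPM in the others. Ndc80 was at 66.5 CPM in female del/+ library 1, against 76.3 to 78.8 CPM in the others. Galnt14 was at 1.86 CPM in male del/del library 3, against 1.23 to 1.29 CPM in the others. Crim1 was at 15.55 CPM in male del/+ library 4, against 10.7 to 11.2 CPM in the others.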

How the results depend on the processing

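Over 65 alternative fits, 0 neighbours were called in each, with 62 to 92 neighbours tested and a smallest adjusted p of 0.0542. The median log2 fold change of neighbours lay between -0.0728 and -0.0082 in females, -0.0367 and 0.0100 in males and -0.0408 and -0.0108 with both sexes. Leaving out 1 library at a time, the female median lay between -0.0575 and -0.0082 (all libraries: -0.0556). The labels state no pairs. With nearest animal numbers as a pairing block, the deviations of paired libraries correlated at 0.36, 0.114, -0.0411, 0.194 and 0.205 in females and 0.143, 0.229, 0.14 and 0.36 in males, and the block gave 0 calls and medians of -0.0567 in females, -0.0134 in males and -0.0304 with both sexes. The fall of Smchd1 in males was no longer called with the plasmacytoid dendritic cell score as a covariate (-0.656, adjusted p = 0.127), and lay between -0.80 and -0.69 without single libraries; the cause was not tested. Of 1265 alternatives for 56 named-gene results, 1216 kept their direction and 49 did not, 0 of them called. With the erythroid score as a covariate, directions turned for Birc6 (-0.0629 in females, -0.0708 with both sexes), Ndufv2 (0.0038), Myl12a (0.0618), Lpin2 (-0.0414), Spdya (-0.0559), Trmt61b (-0.0378), Wdr43 (0.0297) and Ttc27 (0.0446). With the plasmacytoid dendritic cell score they turned for Birc6 (-0.0044 in females, -0.0196 with both sexes), Rasgrp3 in females (-0.0310), Myl12b (-0.0138), Emilin2 (-0.316), Wdr43 (0.0369), Ypel5 (0.0166), Xdh (-0.167) and Nlrc4 (-0.0880). The block turned Emilin2 (-0.0334) and Trmt61b (-0.0001), and a minimum count of 50 turned Trmt61b (-0.0002). Without single libraries, values with both sexes ran from -0.0035 to 0.0308 for Myl12b, -0.0678 to 0.0072 for Myl12a, -0.0189 to 0.0239 for Lpin2, -0.172 to 0.198 for Emilin2, -0.0422 to 0.0407 for Trmt61b, -0.0435 to 0.0103 for Wdr43 and -0.0502 to 0.0099 for Ypel5. With the erythroid score as a covariate Mtcl1 differed by 1.651 with both sexes, against 0.9551 without it. What depth limits was not tested. A wide interval was also found for Galm (SE 0.512 in males), at 0.666 to 2.32 CPM in male del/del and 0.406 to 2.03 CPM in male del/+ libraries.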
